A study of Homo sapiens with 8 samples.

Results

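The oxidative phosphorylation genes of SUM159 cells were followed through selection with a BET inhibitor, a CDK4/6 inhibitor and a taxane. SUM159 is an established line of human triple-negative breast cancer, here carrying a lentiviral DNA barcode library. Members were all rows of the deposited single-cell count table whose symbol begins with MT-, NDUFA, NDUFB, NDUFC, NDUFS, NDUFV, UQCR, ATP5, or COX followed by a digit. This gave 111 of 18955 genes, of which 13 are encoded in mitochondrial DNA (the MT- genes) and 98 in the nucleus. Levels are given as CPM, the unique molecular identifiers (UMIs) of a gene per 1000000 UMIs of its library. A floor of 5 CPM, to be reached in 2 or more libraries, was passed by 12 MT- and 92 nuclear members. UMIs are read at the 3′ end and were not scaled by gene length, so levels of different genes are not ranked, and a ratio of MT- to nuclear UMIs is a ratio of counts. Among those left out were MT-ATP8, the testis isoforms COX7B2, COX6B2 and COX8C, and NDUFA4L2, a paralog of NDUFA4 known from hypoxia. ATP5L2, which was assigned to no complex, and the antisense transcript NDUFB2-AS1 were also left out. The rows NDUFB8.1, NDUFA7.1 and UQCR11.1 carry a suffix that marks a repeated symbol, so which locus they count is uncertain.

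There were 8 libraries and each group had 1, with equal numbers of cells from replicate cultures pooled for a treatment; for JQ1+Pal 1 culture had died out. The unselected cells before treatment (Pre) and cells passaged in DMSO vehicle were the untreated groups. The other cultures had been passaged up to 18 times with paclitaxel at 0.6 nM (Tax), palbociclib at 160 nM (Pal), JQ1 at 100 nM (JQ1-A and JQ1-B), JQ1 with paclitaxel (JQ1+Tax) or JQ1 with palbociclib (JQ1+Pal), at the same doses. DMSO, Tax, JQ1-A and JQ1+Tax were from 1 experiment, and Pal, JQ1-B and JQ1+Pal from another that had no vehicle library, so that Pal has no vehicle of its own experiment. JQ1 displaces BET bromodomain proteins from acetylated chromatin, palbociclib inhibits CDK4 and CDK6, and paclitaxel stabilizes microtubules. The libraries held 459 to 1024 cells and 10621159 to 24240835 UMIs, with a median of 20664 to 22503 UMIs per cell. Libraries shared 13 cell barcode sequences, and 97.2% of the 5738 cells passed the study's filter. VIM, a mesenchymal marker of SUM159, lay between 3279 and 4502 CPM, whereas ESR1 reached at most 0.124 CPM and PGR at most 0.1395 CPM. ERBB2, read with them as a receptor marker, was above 5 CPM in every library. It had 5.32 CPM in Pre, 7.34 in DMSO and 5.61 in Tax. It was higher in Pal (10.3 CPM) and in all 4 JQ1 libraries (10.07 CPM or more). The leukocyte marker PTPRC reached at most 0.471 CPM. Of the other-cell markers with a row, the macrophage marker CD68 had 7.71 to 12.2 CPM. The fibroblast marker DCN had 7.82 to 34.4 CPM without JQ1, highest in Pal, against 1.07 to 2.41 CPM with it, and was called lower with JQ1 (log2 fold change -3.25 ± 0.51). The part of DCN-expressing cells in the results below was not tested.

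Oxidative phosphorylation passes electrons from NADH through complexes I, III and IV to oxygen, and the proton gradient so built drives ATP synthesis by complex V. The catalytic and membrane core of these complexes is encoded partly in mitochondrial DNA, which is transcribed inside the organelle by its own polymerase into long polycistronic transcripts. The remaining subunits, all factors that assemble the complexes and the machinery of mitochondrial transcription come from nuclear genes and are imported. The respiratory complexes therefore need products of both genomes.

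The 13 mitochondrial genes code for 7 subunits of complex I (MT-ND1 to MT-ND6 and MT-ND4L), cytochrome b of complex III (MT-CYB), 3 subunits of complex IV (MT-CO1 to MT-CO3) and 2 subunits of complex V (MT-ATP6 and MT-ATP8). In the GRCh37 reference, whose mitochondrial sequence has 16569 bases, they lie on chrM between 3307 (the start of MT-ND1) and 15887 (the end of MT-CYB), and MT-ND6, at 14149 to 14673, is the only 1 of the 13 on the minus strand. These genes have no introns and several abut or overlap, which bears on how reads can be assigned. MT-ATP8 (8366 to 8572) and MT-ATP6 (8527 to 9207) share the 46 bases at chrM:8527-8572, and MT-ND4L (10470 to 10766) and MT-ND4 (10760 to 12137) share 7 bases. Both overlaps are shown because the downstream partner of each pair had far more UMIs than the upstream partner. In the first sequence the capitals mark the first codon of MT-ATP6, and in the second, chrM:10750-10776, the capitals mark the bases shared by both genes.
MT-ATP8 and MT-ATP6 overlap: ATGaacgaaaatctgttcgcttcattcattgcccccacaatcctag
MT-ND4L and MT-ND4 overlap: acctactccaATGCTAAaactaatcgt
MT-ATP8 had 576 UMIs in the 8 libraries together, and its level was 3.30 to 5.57 CPM. MT-ATP6 lay at 2422 to 4901 CPM. MT-ND4L and MT-ND4 lay at 36.9 to 57.4 and at 3273 to 7034 CPM. Reads within a shared stretch belong to both genes. The part of these stretches, or of reading at the 3′ end, in the low counts of MT-ATP8 and MT-ND4L was not tested. The levels of both are uncertain.

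The share of UMIs on mitochondrial genes was lowest in the libraries without JQ1 or palbociclib and highest with both drugs. It was 3.83% in Pre, 3.73% in DMSO and 3.71% in Tax. Under JQ1 it was 5.44% in JQ1-A, 4.83% in JQ1-B and 4.75% in JQ1+Tax. Pal, without JQ1, had 5.66%, and JQ1+Pal had 7.03%. Exact binomial 95% intervals for DMSO (3.72 to 3.74%) and JQ1+Pal (7.02 to 7.04%) cover counting error only. The Pal library thus lay above 3 of the 4 JQ1 libraries, and the JQ1-exposed and unexposed groups overlapped.

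The nuclear members together did not follow this order. They took 2.83% of UMIs in Pre, 2.74% in DMSO, 2.66% in Tax and 2.73% in Pal. The 4 JQ1 libraries had 2.42% (JQ1-A), 2.53% (JQ1+Tax), 2.36% (JQ1-B) and 2.40% (JQ1+Pal), all below the libraries without JQ1. Counted among UMIs outside the MT- genes, the share was 2.77 to 2.94% without JQ1 and 2.48 to 2.66% with it, so the groups were also apart on that total. Mitochondrial UMIs exceeded nuclear ones by a ratio of 1.35 in Pre and 1.36 in DMSO, against 2.07 in Pal, 2.25 in JQ1-A and 2.92 in JQ1+Pal.

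**Figure D1:**
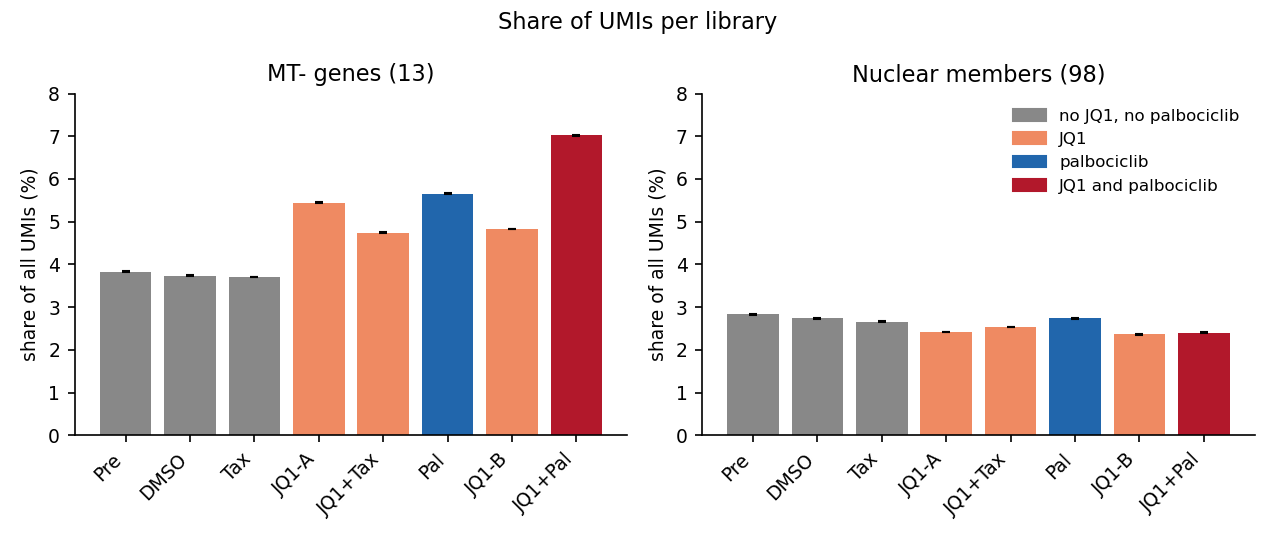
Share of all UMIs (y axis, percent) on the 13 MT- genes (left) and the 98 nuclear members (right) in each of the 8 libraries (x axis), coloured by exposure, with exact binomial 95% intervals for counting error as error bars. MT- shares run from 3.71% in Tax to 7.03% in JQ1+Pal, and nuclear shares stay between 2.36 and 2.83%.

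UMIs per gene are a share of the library, and the typical gene moved on that scale. Among the 4433 genes that averaged 20 CPM or more, the median log2 ratio of JQ1-A to DMSO was -0.34, and that of JQ1+Tax to Tax was -0.38. The fits below therefore used TMM scaling, which centres the tested genes (median log2 fold change for JQ1 over all 9288 genes, -0.003). Without TMM factors this median was -0.20 and 22.9% of all JQ1 calls were rises, against 47.4% with them. Levels are printed as CPM without TMM factors, and fold changes are on the TMM scale. Divided by the TMM factors, the nuclear share was 2.44 to 2.74% without JQ1 and 2.49 to 2.81% with it, so that the groups overlapped, and the nuclear median of JQ1-A against DMSO (-0.34) was that of all genes. The mitochondrial share so divided was 3.38 to 3.50% in Pre, DMSO and Tax, 5.66% in Pal and 5.11 to 7.28% in the JQ1 libraries.

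By complex, the MT- sums were higher in JQ1+Pal than in DMSO for all 4 complexes, whereas among the nuclear subunits those of complex I differed most. For complex I, the 7 MT- genes summed to 10583 CPM in DMSO and 18487 CPM in JQ1+Pal. The 37 nuclear subunits of complex I summed to 8635 CPM in Pre, 8582 in DMSO, 8359 in Tax and 7625 in Pal, but to 6392 in JQ1-A, 6840 in JQ1+Tax, 6552 in JQ1-B and 6382 in JQ1+Pal. All 4 JQ1 libraries were below all 4 others for these subunits, also when divided by the TMM factors (6615 to 7585 against 7629 to 7900). For complex IV, the 3 MT-CO genes summed to 21460 CPM in DMSO and 41336 CPM in JQ1+Pal, while the 11 nuclear subunits had 6432 and 6015 CPM. MT-CYB of complex III had 2418 and 5524 CPM in these libraries, and the 8 nuclear subunits 3475 and 3409 CPM. The MT-ATP genes of complex V had 2840 and 4907 CPM, and the 15 nuclear subunits 7295 and 6934 CPM. The ratio of mitochondrial to nuclear subunit UMIs in JQ1+Pal was 2.35 times that in DMSO for complex I, 2.33 times for complex III, 2.06 times for complex IV and 1.82 times for complex V. These are ratios between 2 libraries of different experiments and have no replicate check.

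**Figure D2:**
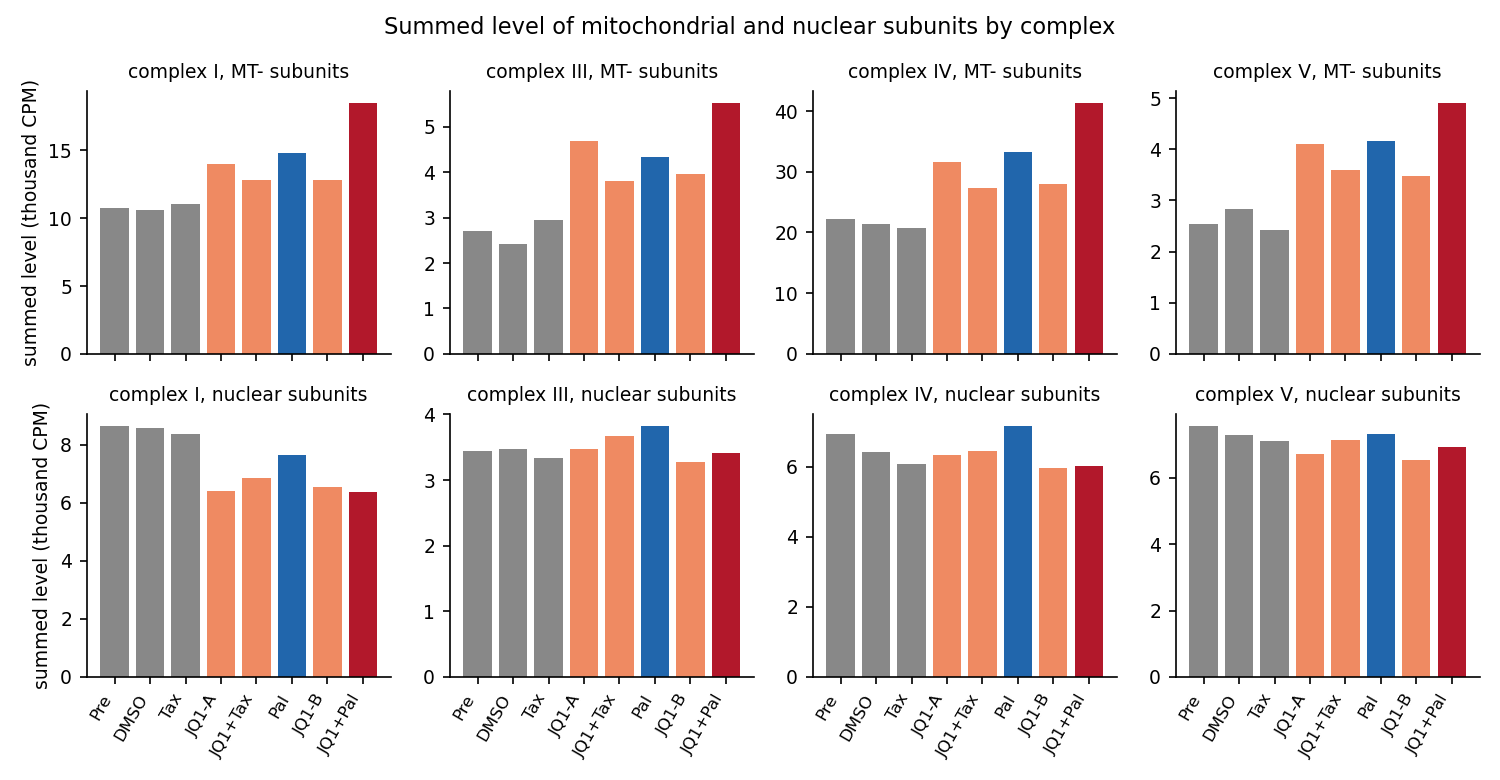
Summed level (y axis, in units of 1000 CPM, each panel from 0) of the MT- genes (top) and the nuclear subunits without assembly factors (bottom) of complexes I, III, IV and V in the 8 libraries. Every MT- panel has its highest bar in JQ1+Pal, and among the nuclear panels complex I has all 4 JQ1 libraries (6382 to 6840 CPM) below the other 4 (7625 to 8635 CPM).

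JQ1 exposure was tested in a single additive fit with palbociclib and paclitaxel terms, 4 libraries against 4, over 9288 genes. Of the 12 mitochondrial genes tested, 8 were called higher with JQ1 and 0 lower at an edgeR adjusted p under 0.05, where 17.8% of all genes tested were called higher and 19.7% lower. All 12 had a positive log2 fold change, with a median of 0.51. For palbociclib, 2 libraries against 6, 0 of the 12 passed the same test, although 11 were positive with a median of 0.54.

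MT-CYB, the cytochrome b subunit of complex III, had the largest rise with JQ1. Its level was 2704 CPM in Pre, 2418 in DMSO, 2940 in Tax and 4345 in Pal, and 4697 in JQ1-A, 3810 in JQ1+Tax, 3958 in JQ1-B and 5524 in JQ1+Pal. The 3 libraries with neither drug were lowest, and Pal lay within the range of the JQ1 libraries. The fitted log2 fold change for JQ1 was 0.76 ± 0.13 (SE, edgeR adjusted p = 0.0042).

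The 3 complex IV genes, which code for the catalytic core of cytochrome c oxidase, rose as well. MT-CO3 had 7009 CPM in Pre, 6154 in DMSO, 6633 in Tax and 10714 in Pal, and 10450 in JQ1-A, 8960 in JQ1+Tax, 9129 in JQ1-B and 13533 in JQ1+Pal. MT-CO2 had 8468, 7987, 7930 and 11662 CPM in the libraries without JQ1 and 11341, 9522, 10720 and 15723 CPM in those with it, in the same order of libraries. The pattern of the 2 genes was the same: low in Pre, DMSO and Tax, intermediate in Pal and the other 3 JQ1 libraries, and highest in JQ1+Pal. The log2 fold change was 0.68 ± 0.11 for MT-CO3, 0.58 ± 0.09 for MT-CO2 and 0.54 ± 0.12 for MT-CO1 (edgeR adjusted p = 0.00367, 0.00259 and 0.0108).

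MT-ND4, a proton-pumping subunit of complex I, had 3273 CPM in Pre, 3715 in DMSO, 3329 in Tax and 5302 in Pal, against 5225 in JQ1-A, 4681 in JQ1+Tax, 4655 in JQ1-B and 7034 in JQ1+Pal (log2 fold change 0.67 ± 0.10, edgeR adjusted p = 0.00246). MT-ATP6, the a subunit of the ATP synthase membrane sector, had 2422 to 4168 CPM without JQ1 and 3469 to 4901 CPM with it (0.65 ± 0.12, edgeR adjusted p = 0.00552). MT-ND1 (0.47 ± 0.10) and MT-ND2 (0.39 ± 0.09) were the other 2 called, and both code for membrane subunits of complex I. MT-ND3 (0.31 ± 0.13), MT-ND5 (0.30 ± 0.15), MT-ND6 (0.29 ± 0.16) and MT-ND4L (0.14 ± 0.15) did not pass. The mitochondrial genes that did not pass were all of complex I, which holds 7 of the 12 tested. Of those tested they also had the fewest UMIs over all libraries, from 6069 (MT-ND4L) to 130071 (MT-ND5). Each gene called had 471010 (MT-ND1) or more.

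In none of the 12 mitochondrial genes did the JQ1 libraries lie entirely apart from the others, on CPM or on TMM-scaled CPM. Of the 8 calls, 7 held under all 16 alternative settings, 8 of which left out 1 library each. MT-ND2 did not pass without TMM factors (edgeR adjusted p = 0.0563).

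**Figure D3:**
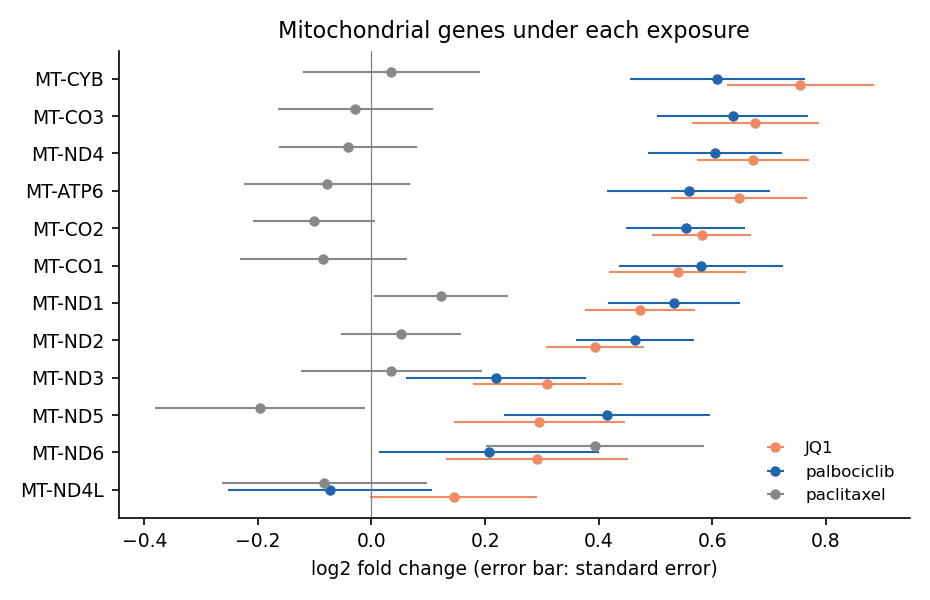
Fitted log2 fold change (x axis) of the 12 tested mitochondrial genes (y axis) for JQ1, palbociclib and paclitaxel, with standard errors as bars. The 8 genes called for JQ1 lie between 0.39 and 0.76, their palbociclib estimates lie between 0.46 and 0.64, and paclitaxel estimates of all 12 lie between -0.20 and 0.39.

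The nuclear members split under JQ1, with 8 called higher and 21 lower of 92, and a median log2 fold change of -0.05. These are 8.7% and 22.8% of the nuclear members, against 17.8% and 19.7% of all genes. Without TMM factors 3 were called higher and 40 lower, with a median of -0.25 where that of all genes was -0.20. Complex I carried most of the falls: of its 44 tested nuclear members 14 were called lower and 2 higher (median -0.13). Complex III had 1 called in each direction of 8, complex IV 1 higher and 4 lower of 21, and complex V 3 higher and 2 lower of 17. Complex V here counts ATP5S, called higher, and ATP5SL, which are not its subunits. Of its 15 subunits 2 were called in each direction. The remaining call higher was ATP5EP2, a copy of ATP5E assigned to no complex. On TMM-scaled CPM, the 4 JQ1 libraries lay wholly below the others for 17 nuclear members and wholly above for 7, where 12.8% and 11.7% of all genes did so. On plain CPM these counts were 31 and 1, where 22.7% and 5.45% of all genes did so.

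The number of nuclear calls depended on single libraries, as did that of all genes. Over all genes the JQ1 calls numbered 3488 with all libraries, 1970 without Pre, 2269 without DMSO, 1760 without JQ1-A and 2032 without JQ1-B. They numbered 3054 without Tax, 3094 without JQ1+Tax, 4190 without Pal and 4149 without JQ1+Pal. The nuclear counts were as follows. Calls higher numbered 3 without Pre, DMSO, JQ1-A or JQ1-B, 4 without Tax or JQ1+Tax, 18 without Pal and 13 without JQ1+Pal, and calls lower numbered 9 without Pre, 12 without DMSO, 8 without JQ1-A and 9 without JQ1-B.

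Among the complex I core subunits, which hold the flavin, the iron-sulfur clusters and the quinone site, 3 of 7 were called lower and 0 higher, where 19.7% and 17.8% of all genes were. Among these were NDUFS3 (-0.38 ± 0.09) and the iron-sulfur subunit NDUFV2 (-0.27 ± 0.08).

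Of the 30 accessory subunits, which surround and stabilize the core, 8 (26.7%) were called lower and 2 (6.67%) higher. NDUFA1, a membrane-arm subunit encoded on the X chromosome, had the largest fall of all nuclear members. Its level was 399 CPM in Pre, 416 in DMSO, 317 in Tax and 352 in Pal, against 208 in JQ1-A, 193 in JQ1+Tax, 171 in JQ1-B and 157 in JQ1+Pal. The groups were far apart, and Pal was among the higher libraries (log2 fold change -0.83 ± 0.13, edgeR adjusted p = 0.00278).

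NDUFC1, another small membrane subunit, had 238, 257, 233 and 226 CPM in Pre, DMSO, Tax and Pal, against 131, 146, 135 and 105 CPM in JQ1-A, JQ1+Tax, JQ1-B and JQ1+Pal. Its groups also lay apart (-0.70 ± 0.11, edgeR adjusted p = 0.00332). NDUFA9 had 64.6, 72.2, 69.2 and 44.3 CPM without JQ1 and 37.5, 43.0, 34.0 and 26.7 CPM with it. For this gene Pal was close to the JQ1 libraries, and on TMM-scaled CPM the groups overlapped (-0.63 ± 0.10, edgeR adjusted p = 0.00358).

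NDUFA5, a subunit of the matrix arm, had 73.0 to 102 CPM without JQ1 and 51.2 to 58.0 CPM with it (-0.49 ± 0.09, edgeR adjusted p = 0.00513). NDUFAB1, the mitochondrial acyl carrier protein and a complex I subunit, had 326 to 510 CPM without and 229 to 288 CPM with JQ1 (-0.47 ± 0.09). NDUFB11, NDUFB8.1 and NDUFS6 were also called lower, with log2 fold changes between -0.35 and -0.24. The accessory subunits called higher were NDUFA2 (151 to 197 CPM without JQ1, 180 to 210 CPM with it; 0.40 ± 0.12) and NDUFB2 (0.28 ± 0.08). Neither passed without TMM factors (edgeR adjusted p = 0.144 and 0.518). Leaving out Pre, DMSO, JQ1-A or JQ1-B lost both calls, as did leaving out Tax or JQ1+Tax for NDUFA2 and JQ1+Pal for NDUFB2. Both were also lost with the experiment added as a term (edgeR adjusted p = 0.0565 and 0.0951). NDUFB2 was lost without the floor of 5 CPM as well (edgeR adjusted p = 0.113).

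Assembly factors, which insert cofactors and build the complexes but are not part of them, had 6 calls lower (37.5%, against 19.7% of all genes) and 0 higher among 16 tested, with a median of -0.34. For complex I these were NDUFAF4, NDUFAF2 and NDUFAF5. NDUFAF4 had 83.3 CPM in Pre, 63.0 in DMSO, 111 in Tax and 38.0 in Pal, and 36.0 to 37.9 CPM in all 4 JQ1 libraries. The Pal library lay next to the JQ1 libraries. The fall (-0.70 ± 0.20, edgeR adjusted p = 0.0257) did not pass without Pre, Tax, JQ1-A, JQ1+Tax or JQ1-B, with adjusted p between 0.0588 and 0.0889. With the experiment added as a term it did not pass either (edgeR adjusted p = 0.0729). NDUFAF2 had 183 to 236 CPM without JQ1 and 122 to 137 CPM with it (-0.48 ± 0.09). For complex IV the lower calls were COX17, a copper chaperone, COX11, which delivers copper to the oxidase core, and COX16. COX17 had 197 to 223 CPM without JQ1 and 140 to 151 CPM with it (-0.33 ± 0.09, edgeR adjusted p = 0.0256).

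Subunits of complexes III and IV mostly did not pass. UQCRH, the hinge protein of complex III, had 952 CPM in Pre, 887 in DMSO, 938 in Tax and 1187 in Pal, and 1080, 1184, 1086 and 1191 CPM in JQ1-A, JQ1+Tax, JQ1-B and JQ1+Pal. It was called higher (0.40 ± 0.11, edgeR adjusted p = 0.0201), but Pal lay among the JQ1 libraries and the call was lost without TMM factors (edgeR adjusted p = 0.0807). It was also lost without Pre, DMSO, Tax, JQ1-A, JQ1+Tax or JQ1-B, with adjusted p between 0.0557 and 0.0732. With the experiment added as a term the UQCRH call was lost too (edgeR adjusted p = 0.0655). UQCR10, a small complex III subunit, was called lower (-0.32 ± 0.09). Of the 11 nuclear subunits of complex IV, COX7B was called lower and COX6A1 higher.

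COX7B, also encoded on the X chromosome, had 619, 627, 568 and 568 CPM in Pre, DMSO, Tax and Pal and 379, 358, 352 and 325 CPM in JQ1-A, JQ1+Tax, JQ1-B and JQ1+Pal. The groups lay well apart (-0.55 ± 0.09, edgeR adjusted p = 0.00356). COX6A1 had 203 to 261 CPM without JQ1 and 215 to 316 CPM with it, and the groups overlapped (0.48 ± 0.15, edgeR adjusted p = 0.0332). Its call was lost without any of Pre, DMSO, Tax, JQ1-A, JQ1+Tax or JQ1-B (adjusted p 0.0592 to 0.11). Without TMM factors, or with the experiment added as a term, it was also lost (edgeR adjusted p = 0.11 and 0.0832). The 3 members annotated on chromosome X, NDUFA1, NDUFB11 and COX7B, were all called lower, where 19.7% of all genes were. The share of all X-linked genes called lower was not worked out, so these 3 say nothing about the chromosome. They were singled out after their values were seen.

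Complex V held the largest nuclear rise. ATP5E, the epsilon subunit of the catalytic F1 sector, had 1085 CPM in Pre, 991 in DMSO, 946 in Tax and 1370 in Pal, and 1561 in JQ1-A, 1441 in JQ1+Tax, 1288 in JQ1-B and 1712 in JQ1+Pal. As for the mitochondrial genes, Pal lay among the JQ1 libraries and JQ1+Pal was highest (0.66 ± 0.11, edgeR adjusted p = 0.00456). ATP5EP2, a retrocopy of ATP5E, was called higher too (0.65 ± 0.12), and because the sequences are near identical its 10.1 to 17.2 CPM may be reads of ATP5E. ATP5H, a stalk subunit, had 181 to 243 CPM without JQ1 and 239.6 to 252 CPM with it (0.44 ± 0.12, edgeR adjusted p = 0.023). This call was lost without the same 6 libraries, each in turn (adjusted p 0.0558 to 0.0791). It was also lost without TMM factors and with the experiment added as a term (edgeR adjusted p = 0.0968 and 0.0654). ATP5S, a product outside the core complex, was called higher at 13.3 to 17.7 CPM without and 18.1 to 21.2 CPM with JQ1 (0.61 ± 0.12).

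ATP5G1 moved the other way. It is 1 of 3 genes that code for the same c-ring protein, and had 518 CPM in Pre, 435 in DMSO, 500 in Tax and 386 in Pal, against 245, 281, 281 and 252 CPM in JQ1-A, JQ1+Tax, JQ1-B and JQ1+Pal. Its groups lay apart (-0.59 ± 0.09, edgeR adjusted p = 0.00313). The other two c-ring genes did not pass: ATP5G2 had 527 to 636 CPM without JQ1 and 502 to 669 CPM with it (0.17 ± 0.14), and ATP5G3 had 743 to 923 CPM and 669 to 760 CPM (-0.05 ± 0.08). ATP5F1, of the peripheral stalk, was called lower (-0.29 ± 0.09).

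**Figure D4:**
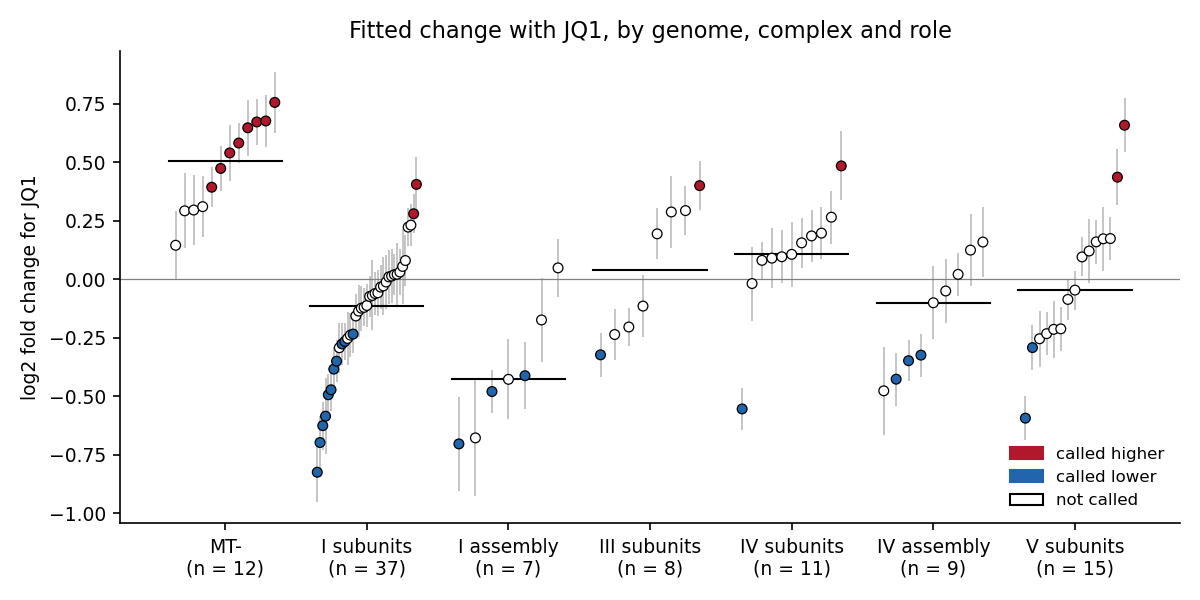
Fitted log2 fold change for JQ1 (y axis) of the tested MT- genes, nuclear subunits and assembly factors, grouped by genome, complex and role (x axis). Bars are standard errors, black lines are group medians and calls are filled. ATP5S, ATP5SL, COX7A2L, ATP5EP2 and COX6A1P2 are not drawn. The MT- genes have a median of 0.51, the complex I subunits -0.11 and the complex I assembly factors -0.43.

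Of the isoform pairs, COX7A2 (490 to 660 CPM), COX7A2L, a supercomplex factor (190 to 239 CPM), COX4I1 (752 to 946 CPM), COX6B1 (434 to 519 CPM) and NDUFA4 (875 to 1259 CPM) were the isoforms with ample counts, and none of these 5 passed for JQ1. Their log2 fold changes were 0.09, 0.08, 0.10, 0.15 and 0.26. The first 4 changed sign without TMM factors, as did ATP5G2, so no direction can be given for these. The restricted isoforms were near the detection limit: COX7B2 had 268 UMIs in all, NDUFA4L2 90, COX8C 12 and COX6B2 7. NDUFB10, the nuclear complex I subunit with the highest mean CPM, had 550 to 633 CPM without JQ1 and 440 to 547 CPM with it and did not pass (-0.11 ± 0.09, edgeR adjusted p = 0.344).

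With nuclear members falling and rising in the same libraries, their promoters were compared with RefSeq promoter sequences (GRCh38.p14, 250 bases before to 50 after the gene start), which could be matched for 81 of the 98 nuclear members, 80 of them used here after leaving out pseudogene copies. Motifs were searched on both strands, and matches of different motifs may share bases. The 10-base consensus of NRF1, a regulator of respiratory genes, was in 21.2% of the 80 promoters and in 6.28% of all 27305 promoters in the table. The ETS letters CCGGAAG were in 26.2% and 10.7%, the 10-base YY1 consensus in 8.75% and 1.28%, the E-box CACGTG in 11.2% and 7.43%, and the SP1 letters GGGCGG in 56.2% and 44.6%. Of the 19 matched members called lower with JQ1, 4 held the NRF1 consensus, 4 the ETS letters and 3 the E-box. Of the 6 called higher, 0 held the NRF1 consensus or the E-box, 3 the ETS letters and 5 the SP1 letters. The SP1 letters were in 10 of the 19 called lower and 29 of the 51 not called, and of these 51 the NRF1 consensus was in 12, the ETS letters in 14 and the E-box in 6.

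The promoters of 3 members that fell and 2 that rose are shown, as examples of members called in each direction, and were chosen after their values were seen. Capitals mark matches to the motifs above, on either strand, and each sequence reads along the gene's own strand. NDUFA1 is at chrX:119871582-119871881 (plus strand) and holds 1 ETS and 2 SP1 matches. NDUFC1 is at chr4:139302502-139302801 (minus strand) with 1 SP1 match, and ATP5G1, now named ATP5MC1, at chr17:48892537-48892836 (plus strand) with 1 E-box. ATP5E, now ATP5F1E, is at chr20:59032286-59032585 (minus strand) with 3 SP1 matches, and ATP5H, now ATP5PD, at chr17:75046920-75047219 (minus strand) with 1 ETS and 1 SP1 match.
NDUFA1, called lower: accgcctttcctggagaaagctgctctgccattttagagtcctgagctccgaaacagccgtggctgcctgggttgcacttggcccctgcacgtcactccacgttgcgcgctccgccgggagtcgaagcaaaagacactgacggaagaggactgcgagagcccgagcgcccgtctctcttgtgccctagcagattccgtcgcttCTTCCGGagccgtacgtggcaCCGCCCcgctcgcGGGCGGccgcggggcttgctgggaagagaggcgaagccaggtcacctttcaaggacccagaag
NDUFC1, called lower: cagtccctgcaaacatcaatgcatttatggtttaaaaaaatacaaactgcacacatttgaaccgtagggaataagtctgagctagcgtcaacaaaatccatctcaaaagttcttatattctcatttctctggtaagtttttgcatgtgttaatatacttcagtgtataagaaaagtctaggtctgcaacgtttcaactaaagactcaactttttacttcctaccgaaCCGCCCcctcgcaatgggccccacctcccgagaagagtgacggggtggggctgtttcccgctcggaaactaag
ATP5G1, called lower: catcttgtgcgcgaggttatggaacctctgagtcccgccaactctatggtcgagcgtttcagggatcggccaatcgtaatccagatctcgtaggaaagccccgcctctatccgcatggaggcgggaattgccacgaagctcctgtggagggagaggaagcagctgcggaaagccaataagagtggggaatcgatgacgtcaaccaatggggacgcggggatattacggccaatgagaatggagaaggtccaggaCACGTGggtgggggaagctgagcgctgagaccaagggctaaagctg
ATP5E, called higher: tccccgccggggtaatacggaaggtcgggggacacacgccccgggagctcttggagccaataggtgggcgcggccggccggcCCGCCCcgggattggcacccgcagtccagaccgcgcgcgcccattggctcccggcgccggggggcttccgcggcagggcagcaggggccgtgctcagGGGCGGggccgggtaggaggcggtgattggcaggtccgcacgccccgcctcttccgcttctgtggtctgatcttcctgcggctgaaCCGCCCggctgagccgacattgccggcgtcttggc
ATP5H, called higher: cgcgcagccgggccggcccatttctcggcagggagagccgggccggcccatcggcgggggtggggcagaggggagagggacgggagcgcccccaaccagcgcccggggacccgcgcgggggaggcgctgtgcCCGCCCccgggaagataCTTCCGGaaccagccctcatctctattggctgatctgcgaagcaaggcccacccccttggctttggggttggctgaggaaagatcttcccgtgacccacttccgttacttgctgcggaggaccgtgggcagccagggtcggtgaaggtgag
The matches are descriptions of letters in these windows, and binding was not measured.

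For palbociclib, 0 of 12 mitochondrial and 0 of 92 nuclear members were called by edgeR, where 0.205% of all genes were called higher and 0.0754% lower. At an unadjusted p under 0.05 there were 8 mitochondrial and 11 nuclear members, where 2056 of all 9288 genes were. The estimates for the mitochondrial genes were of the size seen with JQ1: MT-CO3 0.64 ± 0.13, MT-CYB 0.61 ± 0.15, MT-ND4 0.60 ± 0.12 and MT-CO2 0.55 ± 0.10, with edgeR adjusted p of 0.0742, 0.0959, 0.0716 and 0.0716. DESeq2 on the same counts called 8 mitochondrial genes higher and 0 lower, and 1 nuclear member lower, and over all genes 266 higher and 249 lower. The edgeR count of mitochondrial genes called higher rose to 4 without Tax, 5 without JQ1+Tax and 8 without JQ1+Pal, and that of nuclear members from 0 to 2 higher and 2 lower without JQ1+Pal and to 1 lower without Tax or JQ1+Tax. Over all genes these 3 fits called 482 (without Tax), 497 (without JQ1+Tax) and 938 (without JQ1+Pal), against 26 with all libraries. On TMM-scaled CPM, 2 of the 12 (MT-CO1 and MT-ND2) and 2 nuclear members were higher in both palbociclib libraries than in all others, where 7.67% of all genes were. There were 0 mitochondrial and 4 nuclear members lower in both, where 7.39% of all genes were. On plain CPM 7 mitochondrial genes and 3 nuclear members were higher in both, as were 864 of the 9288 genes.

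The largest palbociclib estimates among nuclear members were ATP5EP2 (0.39 ± 0.15) and ATP5E (0.38 ± 0.14) upward and NDUFA9 (-0.48 ± 0.13, edgeR adjusted p = 0.100) downward. NDUFA1, NDUFC1 and ATP5G1, which fell with JQ1, had palbociclib estimates of -0.19 ± 0.15, -0.18 ± 0.14 and -0.14 ± 0.11. Both exposures were estimated in the same fit, with a shared estimate of the spread. Their standard errors are therefore not independent.

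For paclitaxel, of the 104 members tested 0 were called, where 0% of all genes were called higher and 0% lower, and at an unadjusted p under 0.05 there were 0 mitochondrial and 1 nuclear member. DESeq2 also called 0 members. The median log2 fold change was -0.03 for the 12 mitochondrial and 0.05 for the 92 nuclear genes. MT-ND6 had the highest estimate of all members, at 0.39 ± 0.19.

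Whether JQ1 acted differently in the presence of a partner drug was tested with interaction terms, which left 2 residual degrees of freedom. For JQ1 by palbociclib 0 of 104 members were called, where 0% of all genes were called higher and 0.0108% lower. The mitochondrial median was -0.33, and 2 mitochondrial genes had an unadjusted p under 0.05, MT-CYB (-0.59 ± 0.20, edgeR adjusted p = 0.208) and MT-ND6 (-0.73 ± 0.27, edgeR adjusted p = 0.223), as had 13 nuclear members. For JQ1 by paclitaxel 0 members were called, where 0.355% of all genes were called higher and 0.0323% lower, with 1 mitochondrial and 16 nuclear members at an unadjusted p under 0.05. DESeq2 was not run on the interactions.

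Matched pairs compare 2 libraries and not replicated conditions, and their ratios of CPM have no test. JQ1-A had 1.94 times the MT-CYB and 1.70 times the MT-CO3 of DMSO, and 0.465 times the NDUFAF6, a complex I assembly factor. JQ1+Pal had 0.447 times the NDUFA1 and 0.466 times the NDUFC1 of Pal, and 1.38 times the MT-ND1 (95% counting interval 1.37 to 1.39). Against JQ1-B, JQ1+Pal had 1.51 times the MT-ND4, 1.48 times the MT-CO3 and 0.752 times the COX6A1. JQ1+Tax had 0.287 times the NDUFAF6 and 0.332 times the NDUFAF4 of Tax, and 1.52 times the ATP5E. In each of these 4 pairs the mitochondrial genes had a median above that of all genes, at 0.43, 0.28, 0.49 and 0.32 (log2) against -0.34, -0.06, -0.03 and -0.38. It was below in JQ1+Tax against JQ1-A (-0.16 against -0.01, 2 of 12 up) and in Tax against DMSO (-0.03 against 0.03, 5 of 12 up).

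The pairs also gave the size of differences without a drug change. Between the 2 libraries of JQ1 alone, from different experiments, the 12 mitochondrial genes were lower in JQ1-B by a median of -0.22 (log2), 10 of 12 downward, with MT-ND3 at 0.73 times. From Pre to DMSO the mitochondrial median was 0.01, with 6 up and 6 down, and MT-ND6 in DMSO was 1.39 times its level in Pre. The nuclear medians of these pairs were -0.002 and -0.01.

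MT-CO1, MT-CO2 and MT-CO3 together took 55.8 to 58.8% of mitochondrial UMIs in the 8 libraries. MT-ND3 took 1.49% in Pre, 1.33% in DMSO and 1.30% in Tax, against 1.15% in JQ1-A, 1.04% in Pal, 0.948% in JQ1-B and 0.892% in JQ1+Pal, with 1.26% in JQ1+Tax. MT-ND4L went from 0.154% in DMSO to 0.0693% in JQ1+Pal. MT-ND6 ran from 0.0904% in JQ1+Pal to 0.208% in Tax. The CPM of MT-ND3 was 497 in DMSO and 626 in JQ1+Pal, and that of the less certain MT-ND4L 57.4 and 48.7.

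Cell by cell, the 5th and 95th percentiles of the mitochondrial share were 2.13 and 6.31% in DMSO and 3.89 and 10.5% in JQ1+Pal, so that both ends of the distribution were higher. Among cells passing the study's filter the median was 3.96% in Pre, 3.84% in DMSO and 3.72% in Tax, 5.33% in JQ1-A, 4.72% in JQ1+Tax and 5.07% in JQ1-B, 5.54% in Pal and 7.16% in JQ1+Pal. The lower quartile of JQ1+Pal (5.71%) lay above the upper quartile of DMSO (4.85%). Of JQ1+Pal cells 65.9% were above the 95th percentile of DMSO cells (6.31%), as were 27.0% of Pal, 26.3% of JQ1-A, 21.8% of JQ1-B, 16.3% of JQ1+Tax and 3.51% of Tax cells. After thinning each cell to 10000 UMIs, the medians of DMSO and JQ1+Pal were 3.83% and 7.17%, with 88 shallower cells left out of all libraries.

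The coefficient of variation of the mitochondrial share between cells was 34.0% in DMSO, 24.9% in Pal and 28.1% in JQ1+Pal. The nuclear share outside MT- genes varied by 13.6% between DMSO cells, and by 21.0% in Pal, 20.4% in JQ1-A and 25.9% in JQ1+Pal. Its medians were 2.81% in DMSO, 2.71% in Pal and 2.38% in JQ1+Pal. Spearman's rho between a cell's mitochondrial share and its nuclear share outside MT- genes lay between -0.38 in Pal and -0.13 in Pre, as a description over 452 to 991 cells of a library, whose points share a library and a total. The mitochondrial share also went down with the UMIs of a cell, with rho between -0.48 in Tax and -0.17 in JQ1+Tax.

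**Figure D5:**
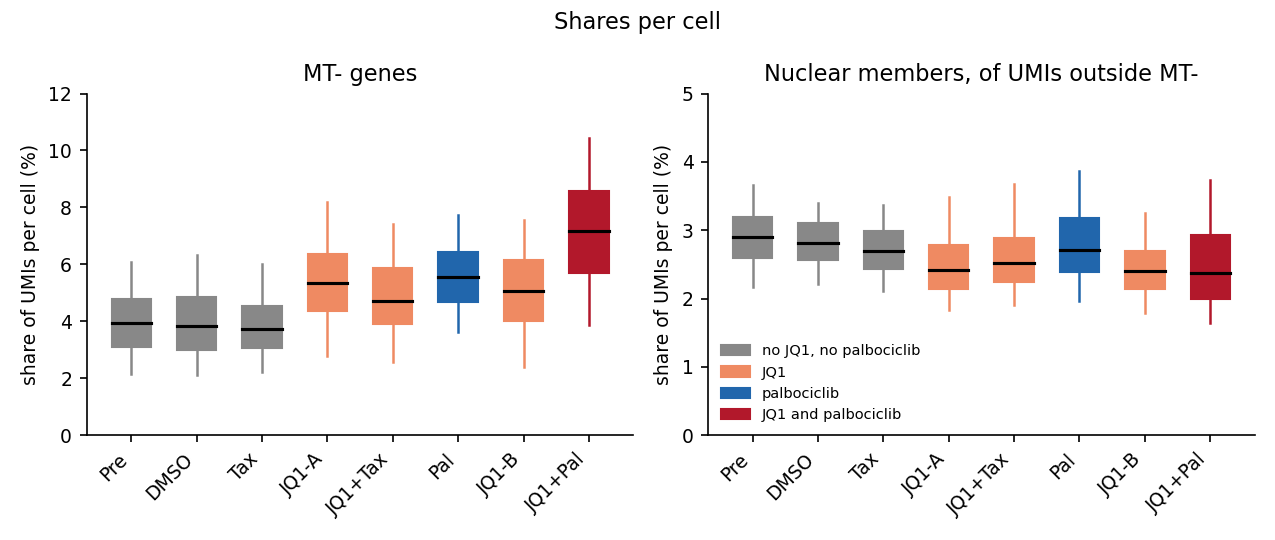
Share of UMIs per cell (y axis, percent) on MT- genes (left) and on nuclear members among UMIs outside MT- genes (right) in cells passing the study's filter, per library. Boxes span the quartiles, black lines are medians and whiskers run from the 5th to the 95th percentile; the JQ1+Pal median is 7.16% against 3.84% in DMSO on the left, and 2.38% against 2.81% on the right.

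Other measures were read beside the mitochondrial share. MALAT1 and NEAT1, RNAs retained in the nucleus, summed to 10546 CPM in Pre, 13494 in DMSO and 8532 in Tax, and to 18112 in Pal and 19126 to 27970 in the JQ1 libraries, and both were called higher with JQ1 (log2 fold change 1.13 ± 0.25 for MALAT1 and 0.91 ± 0.30 for NEAT1). Their order differed from that of the mitochondrial share among the 5 libraries with JQ1 or palbociclib: the sum was highest in JQ1+Tax, which had the lowest mitochondrial share of the 5, and JQ1+Pal had 19126 CPM. Of 5 heat shock genes, 0 were called for JQ1. Cells above 15% mitochondrial UMIs numbered 61, of which 18 were in JQ1-A, 15 in Pal and 15 in JQ1+Pal, but 2 in JQ1-B and 3 in JQ1+Tax, against 3 in Pre, 1 in DMSO and 4 in Tax. The part of these measures in the mitochondrial values was not tested. The mitochondrial calls for JQ1 numbered 8 of 12 also in cells passing the filter.

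Lists of other mitochondrial genes, all nuclear, were read in the same fit, where 17.8% of all genes were called higher and 19.7% lower with JQ1. Of 6 succinate dehydrogenase (complex II) genes 2 were called lower, with SDHB at -0.58 ± 0.08, and 0 higher. Among 13 genes for cytochrome c and electron carriers 2 were called lower, CYCS (-0.62 ± 0.17) and the coenzyme Q enzyme COQ3 (-1.07 ± 0.16). The list of 27 other assembly factors also holds ATPIF1, USMG5 and C14orf2, which are ATP synthase proteins, not assembly factors, and were not called. Of the 27 genes 11 were called lower, with COA6 furthest (-1.04 ± 0.17), and 1 higher, SURF1 (0.57 ± 0.09). Outer membrane and import genes had 13 of 20 called lower and 0 higher, among them the import motor chaperone HSPA9 (-0.68 ± 0.12).

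Further lists, against the same shares of all genes (17.8% higher, 19.7% lower), hold genes that act on mitochondrial DNA and its transcripts or in carbon metabolism. Of 16 genes for replication and transcription of mitochondrial DNA, 2 were called higher, POLG, the replicative polymerase (0.66 ± 0.14), and RRM2B (0.64 ± 0.18), and 1 lower, the transcription factor TFB2M (-0.83 ± 0.23). Of 13 genes for mitochondrial RNA stability and decay 7 were called lower and 0 higher, with FASTKD2 at -0.71 ± 0.17 and SLIRP, which stabilizes mitochondrial transcripts, at -0.46 ± 0.08. Of 5 tested transcription regulators of mitochondrial genes 1 was called, GABPB1 (-0.67 ± 0.18). The tricarboxylic acid cycle had 3 higher (largest OGDH, 0.69 ± 0.10) and 5 lower (furthest FH, -0.60 ± 0.11) of 14, and glycolysis 4 higher (largest ENO2, 1.13 ± 0.21) and 4 lower (furthest PGK1, -0.89 ± 0.12) of 17. For palbociclib and paclitaxel 0 genes of these lists were called by edgeR.

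Outside the module, the 5 genes whose CPM followed the summed mitochondrial level most closely over the 8 libraries were COL6A3, ATP6V1A, DDB1, APP and FAM210B, with Pearson's r between 0.97 and 0.99 among 4338 genes compared. In the other direction, HMGB1, MED11, RHNO1 and GTF3A had r between -0.99 and -0.98. HMGB1, a chromatin protein, went from 2195 CPM in DMSO to 718 CPM in JQ1+Pal. The 8 points share the gap between Pre, DMSO and Tax and the other 5 libraries, and these correlations are descriptions.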

How the data were processed

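The authors made the deposited UMI counts with 10x Genomics single-cell chemistry, alignment to hg19 and counting in Cell Ranger; Seurat is named for their cell filter (1 to 15% mitochondrial UMIs, at least 2000 genes), which the deposited table had not yet had applied. Members, complexes and gene lists were chosen with earlier results of these data known. Counts of all cells were summed per library. Genes with at least 5 CPM in at least 2 libraries (9288) were tested with TMM and the quasi-likelihood test of edgeR 4.0.16 in R 4.3.3, with JQ1, palbociclib and paclitaxel as additive terms and 4 residual degrees of freedom. A call was a Benjamini-Hochberg adjusted p under 0.05, two-sided. Standard errors come from the fold change and F statistic. The fit was tested on simulated data, with larger changes than those of the members called here and in fewer genes than were called. That test does not cover changes of the size reported. Each group has 1 library of pooled cultures, so p-values measure only the spread between these libraries about an additive model. Levels, shares and ratios have no test. Named genes were all MT- genes, the 8 largest called nuclear rises and falls, the highest subunit per complex, isoform pairs, the extremes of each matched pair, the genes most like the mitochondrial sum and the extreme calls of each list. Python 3.11.15 was used for the remaining steps. DESeq2 1.42.0 was an alternative. Other alternatives were DESeq2 size factors, no low-count filter, scaling without MT- UMIs, filtered cells, equal UMIs per library, experiment as a term, no TMM and each library left out. Doublets were not called. Genes named beyond this rule were chosen after their values were seen. Results for some genes that met the rule are not reported here.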

Additional observations from a re-analysis of the deposited data

How the results depend on the processing

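No analysis paired by replicate number was possible because each group has 1 library, so that groups share fewer than 2 replicate numbers. Libraries matched by partner drug were compared as ratios, and the additive fit has the partner drugs as terms. The scaling by library total without TMM, and shares divided by TMM factors, were chosen after seeing the data. Of 36 named genes, 16 calls for JQ1 held under all 16 alternatives (7 mitochondrial, 9 nuclear). Mitochondrial calls for JQ1 numbered 7 to 10 throughout. Nuclear calls higher for JQ1 numbered 3 with experiment as a term and 3 without TMM, and 3 to 18 with 1 library left out. Nuclear calls lower numbered 9, 40 and 8 to 20 in these settings. JQ1 calls over all genes numbered 2043, 3777 and 1760 to 4190 in them, against 3488 in the main fit. Without TMM 22.9% of all JQ1 calls were rises against 47.4%. For palbociclib, mitochondrial calls higher numbered 8 with DESeq2, 4 without the low-count filter, 3 without TMM and 0 to 8 with 1 library left out, and nuclear calls numbered 0 to 2 in each direction (1 lower with DESeq2). Without TMM the JQ1 estimates of MT-ND4L (-0.052), COX4I1 (-0.10), COX6B1 (-0.042), COX7A2 (-0.11), COX7A2L (-0.12) and ATP5G2 (-0.024) changed sign. COX7A2 ran from -0.015 to 0.28 with 1 library left out. For palbociclib, MT-ND4L and MT-ND6 changed sign with experiment as a term (0.33 and -0.013), and ran from -0.22 to 0.065 and from -0.18 to 0.55 with 1 library left out. The cause of these changes was not tested.

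The mitochondrial shares moved by more than counting error but kept the libraries without JQ1 and palbociclib lowest and JQ1+Pal highest. In filtered cells they were 3.76% (DMSO), 3.67% (Tax), 5.24% (JQ1-A), 4.78% (JQ1+Tax), 5.45% (Pal), 4.87% (JQ1-B) and 6.91% (JQ1+Pal). As medians over all cells they were 3.96% (Pre), 3.81%, 3.72%, 5.35%, 4.69%, 5.58%, 5.03% and 7.18% in the same order, and without cells above the 95th percentile of UMIs 3.91%, 3.86%, 3.80%, 5.62%, 4.81%, 5.78%, 4.97% and 7.22%. Nuclear shares of UMIs outside MT- genes were 2.94%, 2.85%, 2.77%, 2.56%, 2.66%, 2.90%, 2.48% and 2.58%, and filtered cells gave 2.43% (JQ1-A) and 2.74% (Pal). Divided by TMM factors, mitochondrial shares were 3.50%, 3.38%, 3.40%, 5.88%, 5.26%, 5.66%, 5.11% and 7.28%, and nuclear shares 2.59%, 2.49%, 2.44%, 2.61%, 2.81%, 2.74%, 2.50% and 2.49%. With assembly factors counted, the lowest and highest ratios were 1.16 and 2.75 for complex I and 2.78 and 6.02 for complex IV. With few UMIs, MT-ATP8 and the restricted isoforms could not be tested.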
